A study of Mus musculus with 10 samples.

Results

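Paneth cells are the granule-filled cells at the base of the small intestinal crypts, and 5 of their genes are described here in cystic fibrosis knockout mice and control mice. The genes were Lyz1, Mmp7, Ang4, Itln1 and Sox9. They were chosen by symbol: every probe set that the array's platform annotation gives to one of these symbols alone was read on all arrays. The rule found 10 probe sets among 45037, and all 5 genes were among the 13644 genes tested. Lyz1 and Sox9 had 3 probe sets each, Ang4 had 2, and Mmp7 and Itln1 had 1 each. A gene with several probe sets was represented by the one with the highest mean over all arrays, and the others are given beside it.

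The animals were from an F2 cross of the strains that the labels call B6 and BALB, and each array held total RNA labelled with biotin. There were 8 cystic fibrosis knockouts, of which 5 carried the letter H and 3 the letter L in their title, and 2 controls. Knockout H comprised 4 animals marked M and 1 marked F, knockout L comprised 1 marked M and 2 marked F, and the controls 1 of each. The labels do not spell out H and L, and the labels say nothing of age, the knockout allele, the controls' genotype or body weight. The title numbers fell into a lower and an upper range: 2 knockout H, 1 knockout L and both control arrays lay in the lower range, and 3 knockout H and 2 knockout L arrays in the upper one. The design text speaks of more animals, which were not analysed here. Every array has its own number, but nothing states how the animals were housed or bred beyond the cross, so the p-values speak only of array-to-array spread, part of which may be technical.

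The sample labels name lung as the tissue, whereas the series title names the intestine. Markers of both tissues were read on every array. The summed intensity of 14 goblet cell markers was 38534 to 56828 in knockouts and 43506 to 43884 in controls, and that of 13 crypt base stem cell markers 3615 to 4229 in knockouts and 2047 to 2139 in controls. That of 11 alveolar type 2 markers was 2229 to 7539 in knockouts and 3059 to 3376 in controls, and that of 8 club cell markers 2941 to 9031 in knockouts and 4843 to 5161 in controls. Sums of different probes cannot be set against each other as levels. Cftr, the chloride channel gene that is defective in cystic fibrosis, averaged 28.1 ± 6.63 in knockouts and 134 ± 4.47 in controls (SD, n = 8 and n = 2). Intensities are linear scanner units with an array median between 18.4 and 18.9. In bulk tissue, fewer cells of a type and less RNA per cell cannot be told apart.

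Paneth cells release their granules into the crypt lumen and so hold bacteria away from the stem cells that lie between them. Lysozyme, alpha-defensins, a secreted phospholipase and C-type lectins are their best-known granule products. In the mouse, the protease encoded by Mmp7 cuts pro-defensins into their active form inside the granule. Sox9 is a transcription factor of the crypt base that is required for Paneth cells to form. In cystic fibrosis mice, mucus builds up in the crypts because chloride and bicarbonate secretion fails.

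No member passed the test between knockouts and controls: 0 of 5 had a limma adjusted p under 0.05, where 4.31% of all tested genes did (1.52% higher and 2.79% lower in knockouts). At an unadjusted p under 0.05, 2 of the 5 were counted, Mmp7 and Sox9, beside 2651 of all 13644 genes. The values of 4 members were higher in knockouts and that of Lyz1 was lower, and the median of the 5 differences was 0.63 on the log2 scale, beside -0.0047 over all genes. Mmp7 and Sox9 were higher in all 8 knockouts than in both controls, a pattern held by 10% of all tested genes, and Itln1 was higher in 7 of 8. Differences are of log2(intensity + 16), which understates the change of dim genes, and they are adjusted for the number range and the letter M or F. With 2 controls, both in the lower number range, the contrast depends on 3 knockouts of that range and on the fitted range term for the other 5.

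**Figure D1:**
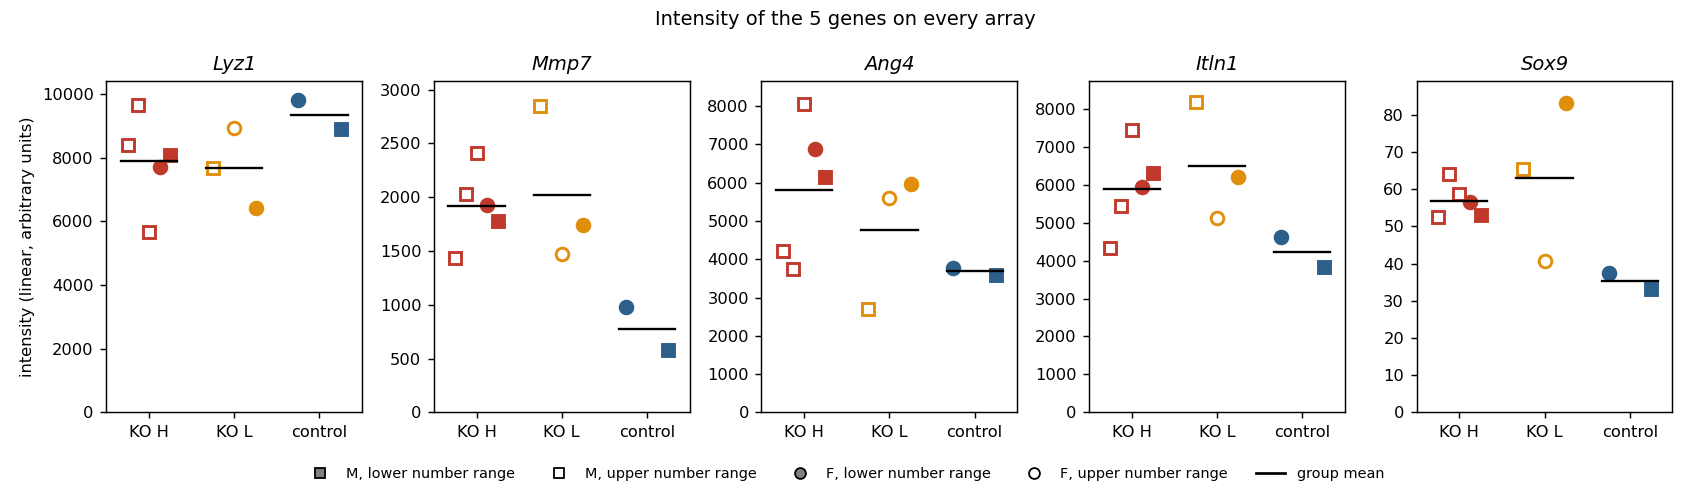
Intensity (linear, arbitrary units, axis from 0) of the 5 genes on each array, with a point per array and a line at the group mean. Both controls lie under all 8 knockouts for Mmp7 and Sox9, and above the knockout mean for Lyz1.

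Lyz1 encodes the Paneth cell lysozyme, an enzyme that cuts bacterial cell walls. Its brightest probe set read 8407, 9662, 5677, 7697 and 8073 in knockout H, 7694, 8948 and 6418 in knockout L, and 9807 and 8896 in controls. No knockout exceeded both controls, 6 of 8 were below both, and the lowest readings came from knockout H replicate 3 and knockout L replicate 3. The means were 7822 ± 1291 in knockouts and 9351 ± 644 in controls (SD, n = 8 and n = 2). The adjusted difference was -0.35 ± 0.21 on the log2 scale (SE; 95% interval -0.82 to 0.11; limma adjusted p = 0.404), and an exact two-sided permutation test of the arrays gave p = 0.133. The other 2 Lyz1 probe sets had adjusted differences of -0.44 (limma adjusted p = 0.547 over all probe sets) and -0.26 (limma adjusted p = 0.750). All 3 were thus lower in knockouts by value, and none passed. The 2 brightest carry the suffix _x_at, which marks probes that can bind several transcripts. The ratio of the second to the first was 0.86 to 0.99 over the arrays, so they read nearly alike. The third, without that suffix, averaged only 81.6 over all arrays.

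Lyz1 has a close neighbour, Lyz2, the lysozyme gene of macrophages and of lung epithelium. On GRCm38.p6, Lyz1 lies at chr10:117287795-117292868 and Lyz2 at chr10:117277541-117282272, with 5522 bases between them. The RefSeq stretches of 100 bases directly before each gene's start (minus strand, chr10:117292869-117292968 and chr10:117282273-117282372) are shown because they are so alike. Capitals mark the longest run of identical letters, 50 bases that end at the start of the gene.
Lyz1: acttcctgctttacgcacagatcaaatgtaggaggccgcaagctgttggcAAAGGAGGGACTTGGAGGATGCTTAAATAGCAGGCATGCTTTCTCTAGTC
Lyz2: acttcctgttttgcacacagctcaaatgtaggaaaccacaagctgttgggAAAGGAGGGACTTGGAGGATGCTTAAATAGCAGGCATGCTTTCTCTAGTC
Of these 100 positions, 92 are identical, and of the whole 250 bases before the start 152 are (60.8%, compared without gaps). Transcript and probe letters were not available to tell how far a Lyz1 probe set can also read Lyz2. The Lyz2 probe set read 1610.3, 3094, 1189, 1841 and 2257 in knockout H, 1256, 2271 and 1469.9 in knockout L, and 2168 and 1621 in controls, a difference of -0.06 (limma adjusted p = 0.962). Its highest knockout was H replicate 2 and its lowest was H replicate 3, as for Lyz1.

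Lung markers moved with Lyz1 among the knockouts, and smooth muscle markers moved against it. The summed intensity of 11 alveolar type 2 markers was 4074, 7539, 2229, 3027 and 6041 in knockout H, 2835, 4482 and 2483 in knockout L, and 3376 and 3059 in controls. The 4 knockouts with the highest Lyz1 readings, H replicates 1, 2 and 5 and L replicate 2, also held the 4 highest marker sums. Both controls had high Lyz1 beside sums of 3376 and 3059, within the range of the knockouts. The brightest of these markers, the surfactant gene Sftpc, read 1099 to 4169 in knockouts and 1107 to 1189.9 in controls. The phosphate transporter gene Slc34a2 read 355 to 733 in knockouts and 1162 to 1309.5 in controls, a large part of the controls' sums. Against control, Sftpc differed by 0.76 (limma adjusted p = 0.509) and Slc34a2 by -1.17 (limma adjusted p = 0.051). By value 9 of the 11 were higher in knockouts and 2 lower, so the sums mix genes that moved in opposite directions. None of the 11 markers was at 0 on any array, and 0 of 11 passed the test. The same 4 knockouts with the highest Lyz1 held the 4 lowest smooth muscle marker sums of the knockouts. These were 6929, 5971 and 7354 in H replicates 1, 2 and 5 and 6829 in L replicate 2, beside 5713 and 12010 in controls. With the lung transcripts as a further covariate, Lyz1 differed by -0.46 with a limma adjusted p of 0.0460, and over all alternatives its difference ran between -0.53 and -0.24 and its limma adjusted p between 0.0460 and 0.747. Whether RNA of another tissue or the share of muscle contributed to the Lyz1 readings was not tested.

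**Figure D2:**
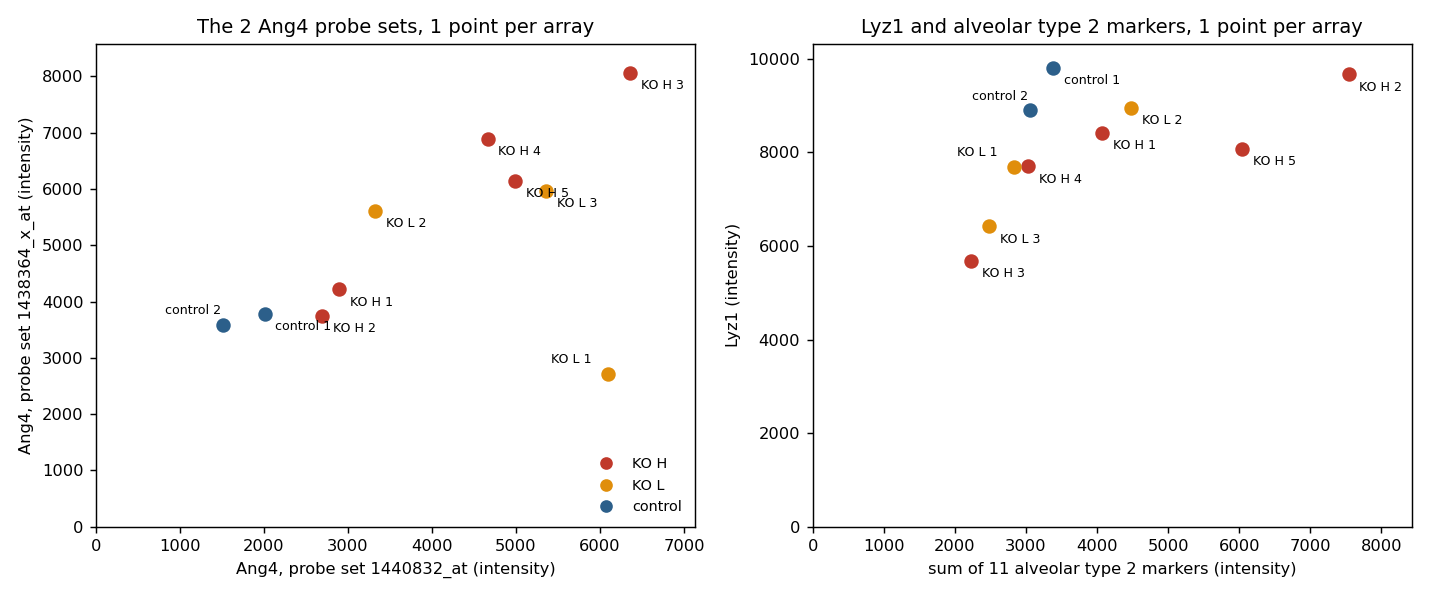
Left, intensity of the 2 Ang4 probe sets set against each other; right, Lyz1 intensity against the summed intensity of 11 alveolar type 2 markers; linear units, 1 point per array. Knockout L replicate 1 lies apart on the left (2709.95 beside 6101), and on the right both controls combine high Lyz1 with sums of 3376 and 3059. The sums include Slc34a2, which was lower in every knockout than in both controls.

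Mmp7, matrilysin, is a secreted metalloprotease without the hinge and hemopexin domain of most relatives. It read 1431, 2028, 2410.1, 1931 and 1774 in knockout H, 2847, 1472 and 1745 in knockout L, and 975 and 575 in controls. Every knockout was above both controls, and the lowest knockout, H replicate 1, was still above the higher control. Means were 1955 ± 477 in knockouts and 775 ± 283 in controls (SD, n = 8 and n = 2). The adjusted difference was 1.26 ± 0.32 on the log2 scale (SE; 95% interval 0.54 to 1.98) with a limma adjusted p of 0.0596, and the exact two-sided permutation p was 0.0444, the smallest that 8 arrays against 2 can give. Mmp7 passed under 7 of 26 alternative limma fits, and its adjusted p ran between 0.00809 and 0.383 over them. The share of all genes passing in these fits is given below for the lower range only. The controls differed from each other: without control replicate 1 the difference was 1.80 (limma adjusted p = 0.156), and without control replicate 2 it was 0.80 (limma adjusted p = 0.383).

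The 250 bases before the start of Mmp7 on GRCm38.p6 (RefSeq, plus strand, chr9:7691840-7692089) are shown because this window and that of Ang4 both hold a match to the AP-1 motif. The motifs searched, on both strands, were those of AP-1, TCF, SOX, the E-box, TATA and GATA. The windows were those of Lyz1, Mmp7, Ang4 and Itln1, and Sox9 had none. The Itln1 window (minus strand, chr1:171535295-171535544) reached into the span given for the gene, chr1:171518123-171535325. No match overlapped another in these windows. Capitals mark the matches.
Mmp7: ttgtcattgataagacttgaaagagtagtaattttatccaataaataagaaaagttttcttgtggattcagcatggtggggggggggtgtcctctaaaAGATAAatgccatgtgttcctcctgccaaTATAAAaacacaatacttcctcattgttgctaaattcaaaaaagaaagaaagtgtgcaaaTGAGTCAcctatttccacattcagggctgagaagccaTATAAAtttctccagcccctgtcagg
Ang4: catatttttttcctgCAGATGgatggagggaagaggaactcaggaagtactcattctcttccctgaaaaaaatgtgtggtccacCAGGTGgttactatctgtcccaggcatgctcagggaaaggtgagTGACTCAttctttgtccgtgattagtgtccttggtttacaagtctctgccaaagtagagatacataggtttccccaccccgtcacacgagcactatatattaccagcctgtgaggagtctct
The AP-1 letters, TGANTCA, began 63 bases before the start in Mmp7 and 122 bases before it in Ang4 (minus strand, chr14:51773591-51773840), and 6.7% of 32851 RefSeq promoter windows of this length hold one. Mmp7 also held TATAAA 26 and 123 bases before its start, a motif in 12.4% of windows, and the GATA letters AGATAA, found in 10% of them. Ang4 held the E-box letters CAGNTG at 2 places, a motif in 44.8% of windows. The windows of Lyz1 and Itln1 held none of the 6, and none of the 4 held the TCF letters CTTTGAT, which are in 3.2% of all windows, or the SOX letters ACAATGG, which are in 3.0%. These matches describe letters and not binding.

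Ang4 encodes a secreted ribonuclease of the angiogenin family with activity against gut bacteria, and in mice both Paneth and goblet cells make it. Its brighter probe set read 4217, 3743, 8058, 6884 and 6137 in knockout H, 2709.95, 5613 and 5964 in knockout L, and 3780.3 and 3584 in controls. Here 6 of 8 knockouts were above both controls, knockout H replicate 2 lay between them, and knockout L replicate 1 was the lowest array of all. The adjusted difference was 0.74 ± 0.36 (SE; 95% interval -0.07 to 1.56; limma adjusted p = 0.306), and the exact two-sided permutation p was 0.267.

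The other Ang4 probe set gave a different order. It read 2895, 2697, 6358, 4663 and 4992 in knockout H, 6101, 3321 and 5363 in knockout L, and 2008 and 1509.7 in controls. All 8 knockouts were above both controls, as for 10% of all tested genes, and knockout L replicate 1 was the next to highest array. The adjusted difference was 1.52 ± 0.40 (SE; limma adjusted p = 0.128 over all probe sets), and leaving out each array in turn gave 1.25 to 1.83. The ratio of the brighter to the other probe set was 0.44 in knockout L replicate 1, between 1.11 and 1.69 in the other 7 knockouts, and 1.88 and 2.37 in controls. The suffix of the brighter probe set (_x_at) marks probes that can bind several transcripts, and members of the angiogenin family are close in sequence.

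Ang, a related gene of the same family, was read beside Ang4. Its brightest probe set read 209.7, 249, 399.8, 269 and 241 in knockout H, 217, 385 and 274 in knockout L, and 489 and 329 in controls. A further Ang probe set with the same suffix as the brighter Ang4 one read 44.8 in knockout L replicate 1, 126 to 268 in the other 7 knockouts, and 362 and 206 in controls. The dimmest Ang probe set, which lacks that suffix, read 27.3 in knockout L replicate 1, 36.3 to 55.1 in the other 7 knockouts, and 83.3 and 49.3 in controls. Knockout L replicate 1 was thus the lowest array on the brighter Ang4 probe set and on these 2 Ang probe sets, with and without the suffix. The Ang gene differed by -0.66 ± 0.24 (SE; limma adjusted p = 0.160), and 0 of the 6 tested angiogenin and ribonuclease genes passed. The ribonuclease inhibitor gene Rnh1 differed by 0.16 and Ang3 by 0.14. Whether the F2 animals carry different alleles at these probes was not tested.

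Itln1 encodes intelectin, a lectin that Paneth and goblet cells secrete and that binds sugars of microbial surfaces. It read 4345, 5452, 7442, 5933 and 6311 in knockout H, 8183, 5119.5 and 6204 in knockout L, and 4618 and 3829.8 in controls. Knockout H replicate 1 lay between the controls and the other 7 knockouts lay above both. Means were 6124 ± 1235 in knockouts and 4224 ± 557 in controls (SD, n = 8 and n = 2). The adjusted difference was 0.56 ± 0.25 (SE; 95% interval -0.0015 to 1.11; limma adjusted p = 0.258), and the exact two-sided permutation p was 0.0889. Without control replicate 1 the difference was 0.79 (limma adjusted p = 0.384), and without control replicate 2 it was 0.35 (limma adjusted p = 0.713). Another intelectin gene is known from some mouse strains and is missing from C57 black mice; whether the probe set also reads it was not tested. The gene lies at chr1:171518123-171535325 on GRCm38.p6.

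Sox9 was a dim transcript on these arrays. It read 52.5, 63.95, 58.7, 56.5 and 53.1 in knockout H, 65.5, 40.7 and 83.1 in knockout L, and 37.5 and 33.1 in controls. Every knockout was above both controls, the 5 knockout H arrays lay close together, and knockout L held both the lowest and the highest knockout. The means were 59.3 ± 12.4 in knockouts and 35.3 ± 3.12 in controls (SD, n = 8 and n = 2). The adjusted difference was 0.63 ± 0.19 (SE; 95% interval 0.21 to 1.06; limma adjusted p = 0.1004), with an exact two-sided permutation p of 0.0444, the smallest possible.

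The dimmer Sox9 probe sets showed smaller differences. The brighter of them read 41.3, 56.6, 58.2, 52.5 and 43.1 in knockout H, 51.8, 37.2 and 62.8 in knockout L, and 40.4 and 38.1 in controls, a difference of 0.31 (limma adjusted p = 0.519 over all probe sets). The dimmer one read 16.8 to 23.5 in knockouts and 18.3 to 19.2 in controls, a difference of 0.11 (limma adjusted p = 0.602), close to the array medians. On both the groups overlapped, and knockout L replicate 2 was the lowest array. Sox9 lies at chr11:112782210-112787757 on GRCm38.p6.

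Each knockout group was also set against the same 2 controls, so these comparisons share their control arrays. In knockout H against control, 0 of 5 members passed where 2.43% of all genes did, and in knockout L against control 0 of 5 passed where 0.344% did. At an unadjusted p under 0.05, 3 members were counted in each, beside 2437 of 13644 genes for knockout H and 1959 for knockout L. Mmp7 differed by 1.25 in knockout H (limma adjusted p = 0.108) and 1.29 in knockout L (limma adjusted p = 0.191). Sox9 differed by 0.60 in knockout H (limma adjusted p = 0.162) and 0.74 in knockout L (limma adjusted p = 0.191). Itln1 differed by 0.50 in knockout H and 0.72 in knockout L, Lyz1 by -0.33 and -0.42, and the brighter Ang4 probe set by 0.87 and 0.38, with limma adjusted p-values between 0.233 and 0.759. The other Ang4 probe set gave the larger value in knockout L, with 1.43 in knockout H (limma adjusted p = 0.198 over all probe sets) and 1.77 in knockout L (limma adjusted p = 0.265). For the brighter one the knockout L difference was 0.69 without knockout L replicate 1 and 0.023 without control replicate 1. For Itln1 the knockout H difference was 0.17 without control replicate 2 and 0.82 without control replicate 1.

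Knockout H was set directly against knockout L. No member passed, and 0% of all genes did; at an unadjusted p under 0.05 limma counted 303 of 13644 genes and 0 of the 5 members. The differences, knockout H minus knockout L, were 0.09 for Lyz1 (95% interval -0.37 to 0.54), -0.05 for Mmp7 (-0.75 to 0.66), 0.49 for Ang4 (-0.21 to 1.19), -0.22 for Itln1 (-0.74 to 0.30) and -0.15 for Sox9 (-0.55 to 0.26). These intervals leave room for differences of the size seen against controls for Lyz1, Ang4 and Itln1. Exact two-sided permutation p-values lay between 0.429 and 0.893 for the 5 genes. By group mean (SD, n = 5 and n = 3), knockout H was below knockout L for Mmp7 (1915 ± 358 in H and 2021 ± 728 in L), Itln1 (5897 ± 1137 in H and 6502 ± 1553 in L) and Sox9 (56.9 ± 4.68 in H and 63.1 ± 21.3 in L). It was above knockout L for Ang4 (5808 ± 1811 in H and 4762 ± 1786 in L) and Lyz1 (7903 ± 1447 in H and 7687 ± 1265 in L). The other Ang4 probe set ran the opposite way, with 4321 ± 1532 in H and 4928 ± 1440.1 in L and a difference of -0.34 (95% interval -1.22 to 0.54), so the order of the 2 knockout groups for Ang4 depends on the probe set. In each case the 2 knockout groups overlapped.

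**Figure D3:**
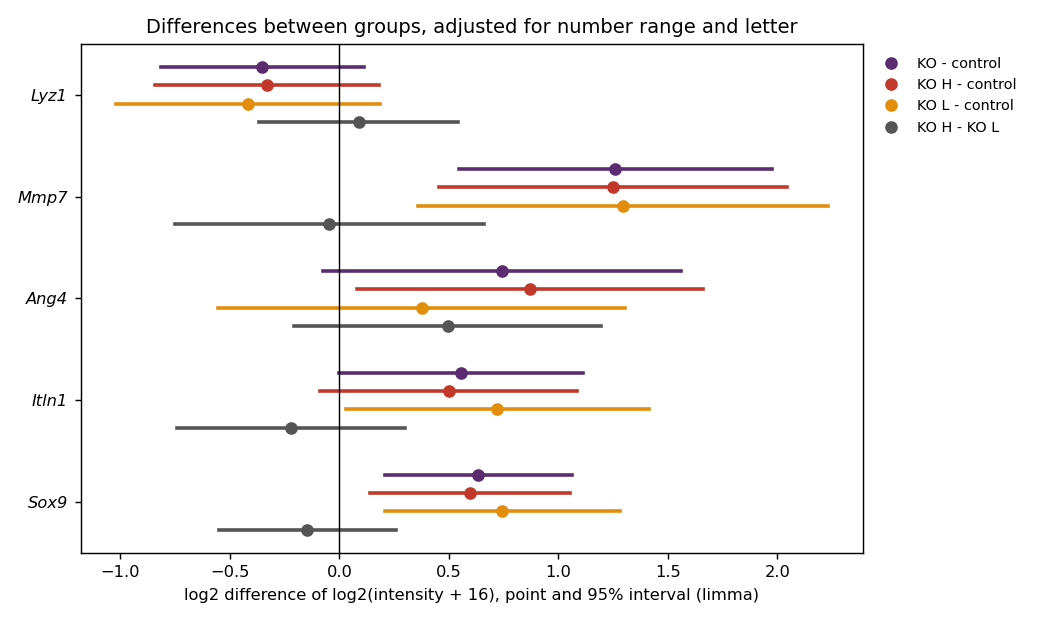
Difference in log2(intensity + 16) with its 95% interval from limma for each gene, for all knockouts minus control, knockout H minus control, knockout L minus control and knockout H minus knockout L. The intervals of Mmp7 and Sox9 against control all lie right of 0 before adjustment over genes. So do those of Ang4 in knockout H and Itln1 in knockout L against control, and the intervals of knockout H minus knockout L all span 0.

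No member passed between the number ranges or between the letters. Upper minus lower range gave 0.16 for Lyz1, 0.10 for Mmp7, -0.24 for Ang4, -0.14 for Itln1 and -0.20 for Sox9, with limma adjusted p-values of 0.725 to 0.938, and 0 of 5 passed where 0.3% of genes did. M minus F gave -0.10 for Lyz1, 0.03 for Mmp7, -0.43 for Ang4, 0.17 for Itln1 and 0.11 for Sox9, with limma adjusted p-values of 0.934 to 0.994, and 0 of 5 passed where 0.022% did. The other Ang4 probe set gave -0.44 for the range and, with the opposite sign, 0.19 for the letter. At an unadjusted p under 0.05 limma counted 0 of 5 members in both, beside 1394 of 13644 genes for the range and 659 for the letter.

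Within the lower range alone, which holds 3 knockouts and both controls, 3 of 5 members passed with limma, Mmp7, Ang4 and Itln1, where 7.43% of all genes passed in the same fit. The exact test of 3 arrays against 2 cannot go below 0.2, and every member stood at that value. In these 5 arrays Mmp7 was 1931 and 1774 in knockout H and 1745 in knockout L, against 975 and 575 in controls. Ang4, by its brighter probe set, was 6884 and 6137 in knockout H and 5964 in knockout L, against 3780.3 and 3584 in controls. On that probe set the 3 knockouts with the lowest readings, H replicates 1 and 2 and L replicate 1, all lay in the upper range. On the other Ang4 probe set L replicate 1 read 6101. There the 3 lowest knockouts were H replicates 1 and 2 and L replicate 2, also of the upper range.

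Other Paneth granule products were compared from a list of 19 genes, of which 7 were measured under a single symbol and 6 were tested. Of the 6, 1 rose in knockouts, Pla2g2a, where 1.52% of all tested genes did. The gene encodes a secreted phospholipase that attacks bacterial membranes. It read 6549, 6327, 10079.8, 8406 and 8293 in knockout H, 9266, 8840.3 and 8535 in knockout L, and 1950.3 and 2042 in controls. All 8 knockouts were thus above both controls, as for 10% of all tested genes. Its difference was 2.06 ± 0.19 (SE; limma adjusted p = 0.0053), and it also passed in knockout H (2.004, limma adjusted p = 0.0136) and knockout L (2.21, limma adjusted p = 0.0257). The median of the 6 differences was 0.59, beside -0.0047 over all genes. The strains differ at this locus: C57BL/6 mice are known to carry a broken Pla2g2a gene, and which alleles these F2 animals held was not tested.

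The 5 other granule genes did not pass. Mptx1, a mucosal pentraxin, read 1150.4, 2031, 3694, 1978 and 2405 in knockout H, 4779.6, 2088 and 2488 in knockout L, and 954 and 594 in controls (1.57 ± 0.52, SE; limma adjusted p = 0.133). Habp2, a secreted serine protease, read 52.0 to 95.3 in knockouts and 20.9 to 33.4 in controls (0.88, limma adjusted p = 0.058). Both were above the controls in all 8 knockouts, as were 10% of all tested genes. The antibacterial lectins Reg3g and Reg3b differed by 0.30 (limma adjusted p = 0.110) and 0.23 (limma adjusted p = 0.136), and Reg3a by -0.64 (limma adjusted p = 0.519).

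Factors that set Paneth cell fate or position formed a list of 16 genes without Sox9, of which 13 were tested. None passed, 11 had higher and 2 lower values in knockouts, and the median difference was 0.27. Atoh1, the transcription factor that commits crypt cells to the secretory lineage, read 295, 212, 335, 338 and 303 in knockout H, 376, 209 and 411 in knockout L, and 177 and 158 in controls. All 8 knockouts were above both controls, as for 10% of all tested genes, and the difference was 0.999 (limma adjusted p = 0.058). Kit, a receptor found on crypt base secretory cells, read 59.1 to 127 in knockouts and 44.6 to 51.4 in controls (0.81, limma adjusted p = 0.088). Fzd5, the Wnt receptor through which Paneth cells mature, read 431 to 578 in knockouts and 538.1 to 605 in controls (-0.29, limma adjusted p = 0.143).

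**Figure D4:**
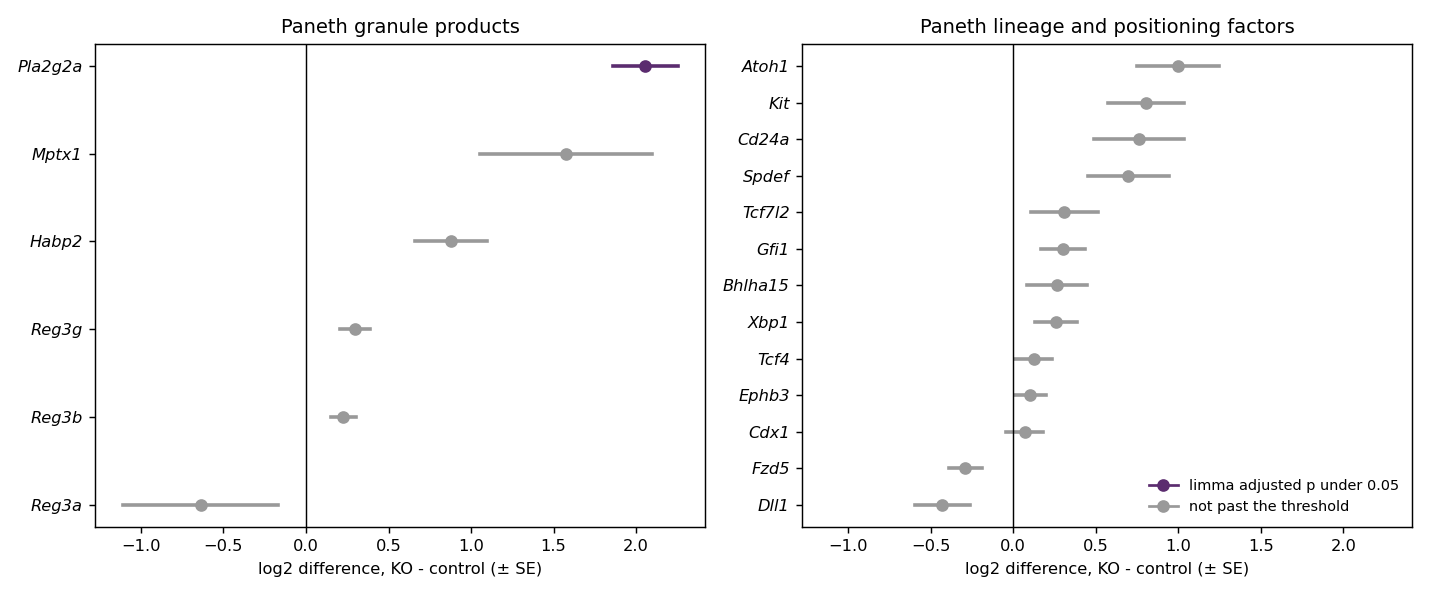
Difference in log2(intensity + 16), knockout minus control, with its SE, for 6 Paneth granule products (left) and 13 lineage and positioning factors (right). Pla2g2a at 2.06 is the only gene of the 19 drawn whose limma adjusted p is under 0.05.

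Relatives of the members were read from further lists. Of 13 tested Sox genes other than Sox9, Sox4 rose (0.75, limma adjusted p = 0.022) and Sox13 fell by 0.64 on the log2 scale (limma adjusted p = 0.015). Over all tested genes, 1.52% rose and 2.79% fell. Sox4 read 244 to 418 in knockouts and 218 to 261 in controls, and Sox13 read 67.1 to 102 in knockouts and 149 to 163 in controls. All 8 knockouts were thus below both controls for Sox13, as for 11.7% of all tested genes. Of 12 tested metalloproteinases and their inhibitors besides Mmp7, none passed, with 7 higher and 5 lower values and a median of 0.09. Mmp14, a membrane-bound member, differed by 0.41 (limma adjusted p = 0.261), and the inhibitor genes Timp1 and Timp3 by 0.12 and 0.21. Of 7 lysozyme and lectin relatives none passed, and Reg4, a lectin of enteroendocrine and goblet cells, differed by 1.74 (limma adjusted p = 0.321), the goblet cell lectin gene Zg16 by -0.23 and the sperm lysozyme relative Spaca3 by 0.051.

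Markers of other intestinal cells moved between the groups as well. The crypt base stem cell sum was higher in all 8 knockouts than in both controls. Of its 13 markers 3 rose, Cd44, Prom1 and Olfm4, where 1.52% of all tested genes did. Olfm4, the brightest of these 3, read 1115 to 1679 in knockouts and 882 and 539.6 in controls. By value 7 of the 13 were higher and 6 lower, with a median of 0.03. Among the lower ones, Lgr5 differed by -0.42 (limma adjusted p = 0.187) and Axin2 by -0.42 (limma adjusted p = 0.268). The 13 measured enterocyte markers summed to 16735 to 25982 in knockouts and 31727 to 34435 in controls. Of 12 tested, 5 fell, Anpep, Cdx2, Fabp2, Treh and Vil1, where 2.79% of all tested genes did. By value 10 were lower and 2 higher, Apoa4 (0.65) and Fabp1 (0.22). Among 14 goblet cell markers 3 rose, Agr2, Galnt12 and Retnlb, where 1.52% of all tested genes did. By value 10 were higher and 4 lower, among the latter Fcgbp (-0.36, limma adjusted p = 0.093) and Zg16 (-0.23), and Muc2 differed by 0.11. Smooth muscle markers summed to 5971 to 11110 in knockouts and 5713 and 12010 in controls. Control replicate 2, the array with the lowest Mmp7, Itln1 and Sox9, had the highest sum. Among the knockouts the order was the opposite. L replicate 1 and H replicate 3, highest in Mmp7 and Itln1, had sums of 10101 and 10991, and L replicate 3, highest in Sox9, had 11110. H replicate 1 and L replicate 2, lowest in Mmp7, had 6929 and 6829. No marker was at 0 on any array, the sums are carried by their brightest genes, and the share of these cells in the members' differences was not tested.

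Across the 10 arrays, Mmp7, Itln1 and Sox9 had the highest correlations with each other. Pearson's r of log2 values was 0.89 between Mmp7 and Itln1, 0.79 between Mmp7 and Sox9, and 0.70 between Sox9 and Itln1. Ang4, by its brighter probe set, had r of 0.21 to 0.25 with these 3, and Lyz1 had r of -0.65 to -0.51 with them. On that Ang4 probe set knockout L replicate 1 read lowest (2709.95). The other Ang4 probe set read 6101 there, next to its highest array, and its r was not taken. The points share the group difference, the number ranges and the tissue piece, so these values only describe 10 arrays.

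The genes most like each member were taken by r over the same 10 arrays among 13643 genes. For Mmp7 they were Habp2 (0.984), Fut8 (0.964), a fucosyltransferase gene that rose in knockouts by 0.88 (limma adjusted p = 0.016), Mptx1 (0.944), Tspan13 (0.942) and Tceal8 (0.935). For Itln1 they were Cd9 (0.9754), a tetraspanin gene, Mptx1 (0.965), Ccl11 (0.956), the eotaxin gene, 9930104L06Rik (0.949) and Dennd11 (0.944). For Sox9 they were Slc7a6 (0.949), an amino acid transporter gene, Stk38l (0.944), a kinase gene, Ankrd10 (0.931), Fastkd1 (0.920) and Hivep3 (0.919). For Lyz1 they were Edem1 (0.937), which acts in the disposal of misfolded glycoproteins, Invs (0.924) and Ift140 (0.920), both genes of cilia, Pim2 (0.916), a kinase gene, and Lta4h (0.916), which makes a leukotriene. For Ang4, by its brighter probe set alone, the closest were lower. They were Flcn at 0.891, Dsg2, a desmosomal cadherin gene, at 0.887, Cap1 at 0.886, Cerk, the ceramide kinase gene, at 0.885 and Hs6st1 at 0.871. Mptx1 was thus among the closest genes of both Mmp7 and Itln1.

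**Figure D5:**
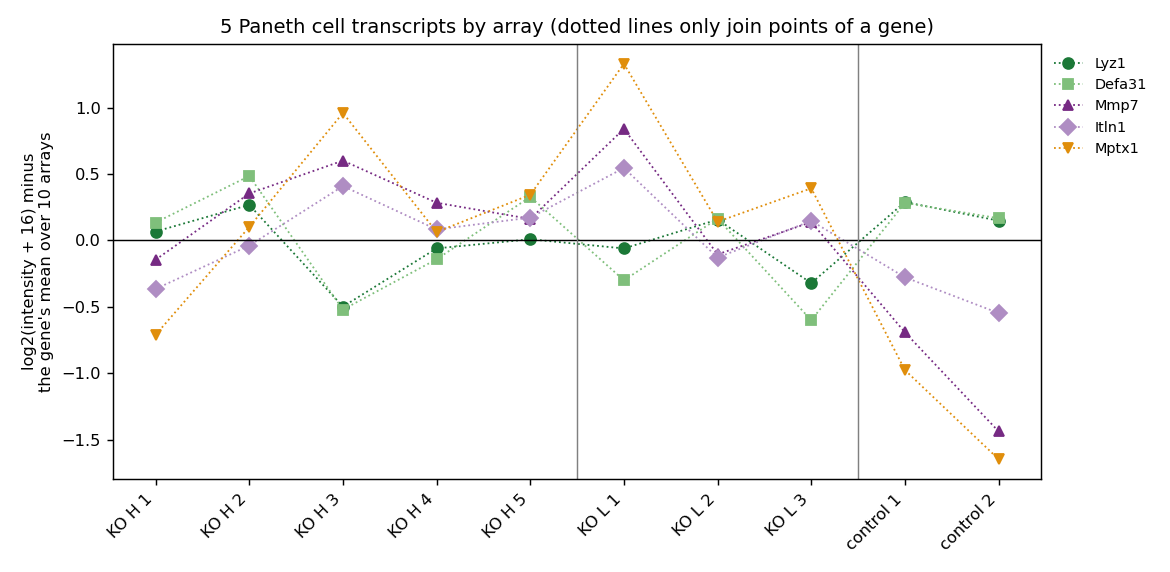
Log2(intensity + 16) minus the gene's mean over 10 arrays for Lyz1, Defa31, Mmp7, Itln1 and Mptx1, in order of array; dotted lines join points of a gene and have no other meaning. Mmp7, Itln1 and Mptx1 peak in knockout L replicate 1 and are lowest in control replicate 2 (975 and 575 in controls for Mmp7), while Lyz1 and the defensin Defa31 are lowest in knockout H replicate 3 and knockout L replicate 3. The probe sets drawn for Lyz1 and Defa31 carry the suffix _x_at and can bind several transcripts.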

How the data were processed

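The authors deposited linear intensities per probe set for each array; their scale follows from the values, and their normalization is not given in the sources used here. Arrays had medians of 18.4 to 18.9 and were not scaled further. Probe sets were named through the platform annotation: of 45101, 64 controls were left out and 34945 had 1 symbol, 932 several and 9160 none; 34741 symbols were updated by gene number. Genes whose mean lay at or below the 25th percentile were left out, which left 13644 of 18193. Tests were limma 3.58.1 in R 4.3.3 on log2(intensity + 16) with number range and letter as covariates, Benjamini-Hochberg adjusted over all genes at 0.05, after a test on simulated data. Single values had exact permutation tests of the difference of means, without the covariates. Members, gene lists and the rule for named genes (every member, of each related list the genes past the threshold or else the 3 with the smallest p, the brightest genes of cell type lists, and the 5 closest genes by correlation) were chosen with earlier results of these data known. The 6 motifs were chosen likewise, and some genes of the cell type lists were named after their values were seen. The alternatives covered pseudocount, normalization, filter, probe set, covariates, array weights and left-out arrays. The number of arrays limits the precision.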

Additional observations from a re-analysis of the deposited data

Results flagged for a closer look

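On the dimmest Lyz1 probe set, knockout H replicate 2 read 115.0, while the other 7 knockouts read 57.1 to 83.1 and the controls 102.9 and 80.2. Its gap to the next knockout was 0.551 of the knockouts' whole range, above Dixon's critical value for 8 samples at 95%. It was the 1 such array among 20 groups of values examined, and chance gives about 1 in 20. The same array had the highest sum of alveolar type 2 markers, 7539.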

How the results depend on the processing

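Against control, all 5 members kept their direction in all knockouts under every alternative run. The count of members past the threshold, 0 as reported, was 1 in all knockouts under a filter at the 50th percentile, without covariates, with number range only, with letter only and with array weights, in each case Mmp7. It was 2 (Lyz1 and Mmp7) with lung transcripts as a covariate and 3 in the lower range alone, where 7.43% of all genes passed. In knockout H and in knockout L it was 1 without covariates and 1 with letter only, and 2 in the lower range alone (Mmp7 and Ang4 in H, where 4.5% of genes passed, Ang4 and Sox9 in L, where 3.75% did). For the fits outside the lower range the share of all genes passing is not given. Their counts therefore do not tell whether the members passed more often than other genes. Leaving out each array in turn gave counts of 0 to 0 in every comparison. Reversed differences all missed the threshold, and the cause was not tested. For knockout H minus L, Mmp7 was 0.085 in the lower range alone and 0.035 with lung transcripts, and Lyz1 was -0.24 with smooth muscle transcripts, -0.045 with lung transcripts and -0.0066 without knockout H replicates 2 and 5. With smooth muscle transcripts, Lyz1 was -0.047 and Ang4 0.011 for the range, and Lyz1 was 0.22 for the letter. Leaving out each array gave, for H minus L, -0.054 to 0.24 for Lyz1, -0.24 to 0.51 for Mmp7, -0.27 to 0.072 for Sox9 and -0.34 to 0.10 for Itln1. For the range it gave -0.094 to 0.43 for Mmp7, -0.45 to 0.061 for Sox9 and -0.26 to 0.027 for Itln1. For the letter it gave -0.22 to 0.014 for Lyz1, -0.35 to 0.41 for Mmp7, -0.15 to 0.28 for Sox9 and -0.058 to 0.38 for Itln1. The left-out arrays for the second Ang4 probe set were an alternative chosen after seeing the data. The letter and range comparisons could not be fitted where their own term was dropped or the lower range stood alone. No paired analysis was possible because the labels give no shared replicate numbers.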

Other observations

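Alpha-defensins are the main antimicrobial peptides of mouse Paneth cells, and the probe sets below were picked after their values were seen. Most alpha-defensin genes of the list had no probe set of a single symbol. The probe sets of Defa31 and Defa39 carry the suffix _x_at, which marks probes that can bind several transcripts. That of Defa3, without the suffix, read only 7.1 to 9.6 over the arrays, below the array medians. The probe set of Defa31 read 11200.3, 14284, 7107, 9245 and 12808 in knockout H, 8282, 11428 and 6723 in knockout L, and 12413 and 11454 in controls. Its lowest arrays were knockout L replicate 3 and knockout H replicate 3, which were also the lowest for Lyz1, and its difference was -0.34 (limma adjusted p = 0.787 over all probe sets).

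The probe set of Defa39 read 3007, 3817, 204, 3231 and 2855 in knockout H, 640, 3822 and 1943 in knockout L, and 5668 and 4104 in controls. Knockout H replicate 3 and knockout L replicate 1 stood far under the other 8 arrays, and its difference was -1.01 (limma adjusted p = 0.838 over all probe sets). A probe set that the annotation gives to several alpha-defensins was near background in 3 knockouts, H replicates 2 and 3 and L replicate 1, and read 4265 to 7259 on the other 7 arrays. Another such probe set read 8473 to 11198 on all 10 arrays. Knockout L replicate 1 and knockout H replicate 3 also had the highest Mmp7, Itln1 and Mptx1 readings. Whether these animals carry other defensin alleles from the 2 strains was not tested.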
